A study of Mus musculus with 10 samples.

Results

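Cyclin-dependent kinase inhibitors are small proteins that hold the kinases of the cell cycle in check. The group described here is the 7 inhibitor genes Cdkn1a, Cdkn1b, Cdkn1c, Cdkn2a, Cdkn2b, Cdkn2c and Cdkn2d, out of 22180 genes with a probe set that names 1 gene. They were chosen by name, as the genes of the Cip/Kip family (3 genes) and the INK4 family (4 genes). Earlier results of these data were known when the choice was made. Each had 1 probe set, so no choice between probe sets was needed, and all 7 matched a RefSeq gene by their Entrez number. All 7 lay above the 40th percentile of mean intensity, so none depended on a filter on low values.

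Expression was measured on 10 one-colour Affymetrix MoGene 2.0 ST arrays of amplified RNA from sorted mouse intestinal cells. The 6 Lgr5-high arrays held stem cells sorted for high Lgr5 and GFP from C57BL/6J mice of genotype Lgr5-EGFP-IRES-creERT2. The 4 Flattop arrays held crypt cells labelled as expressing Flattop, from FltpT2AiCre mice crossed with Gt(ROSA)26mTmG on a mixed C57BL/6J, CD1, 129/SvJ background. All mice were 3 to 6 months old and no treatment is named. In the mTmG reporter, Cre switches the membrane colour permanently, so as background the reporter marks cells with past Cre activity and their descendants as well as cells with current activity. The EGFP insertion at Lgr5 is expressed in only some crypts, again as background. How the sort was gated is not stated by the sources used here. Genotype, strain and sorted population coincide with the group and cannot be told apart, and no label ties replicates to separate animals. The p-values therefore speak only of the variation among these samples, part of which may be technical.

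Values are log2 intensities, in which a difference of 1 is a doubling. Array medians lay between 4.56 and 4.77 over 41345 probe sets, and the median over all genes and arrays was 4.94. No detection calls accompany the values, so a gene near that median may be close to background, and levels of different genes cannot be compared on an array. The numbers in the sample titles fall in 2 ranges, 1 to 8 and 38 to 46, each with 2 Flattop and 3 Lgr5-high arrays. The labels do not say whether these mark batches. Lgr5, the receptor that names the stem cells, averaged 8.37 ± 1.42 (SD, n = 4) on the Flattop arrays. On the Lgr5-high arrays it averaged 9.47 ± 0.33 (SD, n = 6), and the groups overlapped (limma adjusted p = 0.533). The product of Cfap126 is Flattop itself, and this gene was at 5.42 ± 0.74 (SD, n = 4) against 4.996 ± 0.349 (SD, n = 6), also with overlap (limma adjusted p = 0.678). Over all arrays these genes therefore did not separate the labelled populations. For Lgr5 the groups overlapped within titles 1 to 8. Within titles 38 to 46 both Flattop arrays (6.44 and 8.21) lay below every Lgr5-high array (8.99 to 9.61), as for 12.3% of all genes.

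Cells pass from growth into DNA replication when cyclin D with Cdk4 or Cdk6, and then cyclin E with Cdk2, phosphorylate the retinoblastoma protein and release E2F transcription factors. INK4 proteins bind Cdk4 and Cdk6 and keep cyclin D away, whereas Cip/Kip proteins bind cyclin-kinase complexes more widely, Cdk2 complexes above all. In the intestinal crypt, Lgr5 cells and their progenitor daughters divide, and inhibitors are known to accompany the exit from the cycle as cells differentiate and leave the crypt.

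Cdkn1a and Cdkn2b read higher in every Flattop array than in any Lgr5-high array, by 3.37-fold and 1.75-fold in the group means, but neither passed limma's test over all genes. In these bulk samples, a change in how many cells express a gene and a change in its RNA per cell cannot be told apart. The other 5 inhibitors overlapped between the groups, and Cdkn1b, Cdkn1c and Cdkn2c differed little in their means, although their intervals leave room for differences of moderate size. Of the 7 genes, 0 passed an adjusted p of 0.05 in either direction in limma with Benjamini-Hochberg adjustment, against 0.915% of all genes (0.902% higher and 0.0135% lower). Before adjustment 2 were higher and 0 were lower with p below 0.05, against 5.98% and 3.8% of all genes. The same 2 of 7 were those higher without overlap, against 2.01% of all genes (0.974% were lower without overlap). Because the 7 were chosen with earlier results of these data known, these shares are descriptions and do not test the group. The median difference of the 7 was 0.05, beside -0.06 over all genes.

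**Figure D1:**
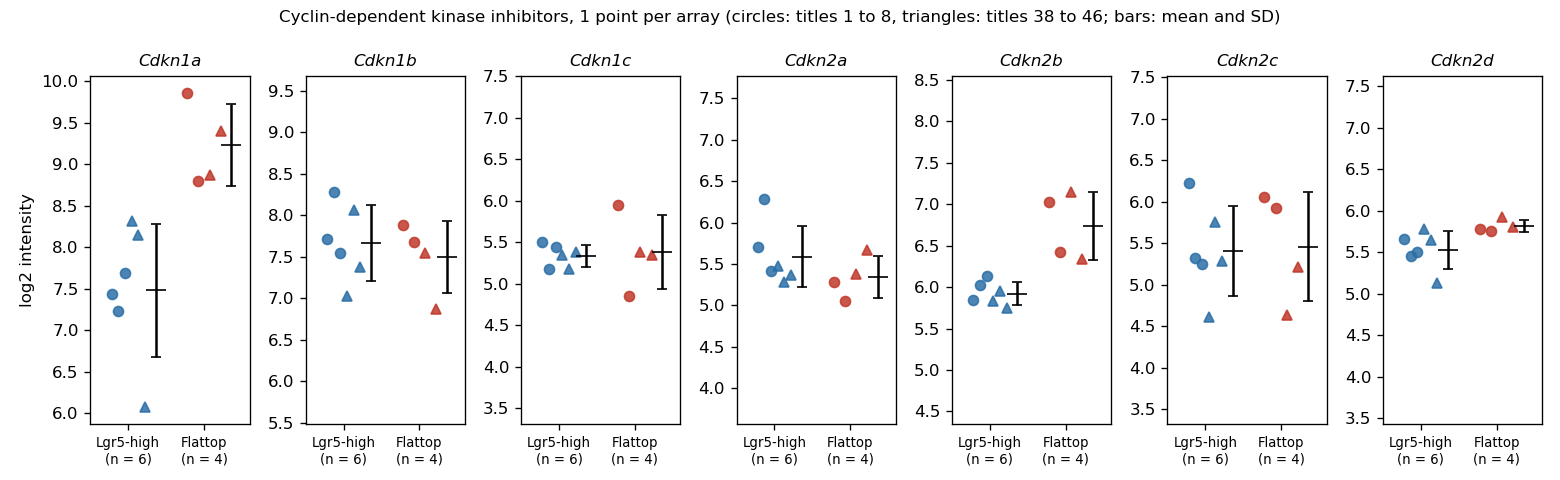
Log2 intensity (vertical axis) of the 7 inhibitors, 1 point per array, in Lgr5-high (blue, n = 6) and Flattop (red, n = 4) arrays. Circles are titles 1 to 8 and triangles titles 38 to 46, bars give mean and SD, and each panel spans the same number of log2 units around its own centre. The Flattop points of Cdkn1a (8.80 to 9.85) and Cdkn2b (6.33 to 7.14) lie above all their Lgr5-high points (6.08 to 8.32 and 5.74 to 6.13), while the groups of the other genes overlap.

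Cdkn1a (Entrez gene 12575) encodes p21, the Cip/Kip inhibitor best known as a target of p53 and as a marker of cells leaving the cycle. The 4 Flattop arrays read 9.85, 8.80, 8.88 and 9.41. Lgr5-high replicates 1 to 6 read 7.44, 7.23, 7.69, 8.32, 8.15 and 6.08. All Flattop arrays were high, the groups were separated by a gap of 0.49, and the spread was wider among the Lgr5-high arrays. The means were 9.24 ± 0.49 (SD, n = 4) and 7.48 ± 0.80 (SD, n = 6). Their difference of 1.75 (SE 0.40, 95% interval 0.86 to 2.64 before any adjustment) had a limma p of 0.00123 and an adjusted p of 0.0921, and its p ranked 295 of 22180 genes. Arrays with titles 1 to 8 gave 1.88 and those with titles 38 to 46 gave 1.63.

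RefSeq lists 2 transcription starts for Cdkn1a, and the array value does not tell their transcripts apart. The windows of 250 bases before to 50 bases after each start are shown because Cdkn1a and Cdkn2b are the inhibitors whose groups did not overlap (RefSeq, GRCm38.p6, chr17:29090729-29091028 and chr17:29093519-29093818, both on the plus strand). Capitals mark every match to the motifs searched on both strands, namely the GC box GGGCGG, the E-box CACGTG, the paired p53 core (the letters CATG, then 6 bases of any kind, then CATG), the E2F-like TTTNGCGC, the forkhead core GTAAACA and the SMAD palindrome GTCTAGAC.
Cdkn1a upstream start: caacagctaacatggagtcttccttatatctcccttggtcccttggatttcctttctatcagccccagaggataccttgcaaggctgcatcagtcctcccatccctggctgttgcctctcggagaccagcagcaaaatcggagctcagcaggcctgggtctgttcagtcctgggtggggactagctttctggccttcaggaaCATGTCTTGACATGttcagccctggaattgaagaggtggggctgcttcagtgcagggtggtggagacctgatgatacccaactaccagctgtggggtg
Cdkn1a downstream start: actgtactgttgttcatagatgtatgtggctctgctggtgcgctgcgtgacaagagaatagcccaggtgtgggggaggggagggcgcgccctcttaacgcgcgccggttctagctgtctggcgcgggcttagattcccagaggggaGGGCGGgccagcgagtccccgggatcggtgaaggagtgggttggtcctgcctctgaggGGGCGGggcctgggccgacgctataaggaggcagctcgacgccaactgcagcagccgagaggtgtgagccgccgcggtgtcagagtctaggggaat
The upstream window holds the paired p53 core at bases 203 to 216, counted from 1 at its 5′ end, which 0.71% of 32817 mouse promoter windows hold. It was the only match to this motif among the 9 windows of the 6 inhibitors in the table. The downstream window holds the GC box at 2 places, a motif that 35.6% of all windows hold. A match of letters is a description and does not show that a factor binds there.

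Cdkn1b (Entrez gene 12576) encodes p27, which restrains cyclin E with Cdk2 and is mainly controlled by protein breakdown. Flattop replicates 1 to 4 read 7.89, 7.67, 7.55 and 6.87. Lgr5-high replicates 1 to 6 read 7.71, 8.28, 7.54, 7.02, 8.07 and 7.38. The groups overlapped over most of their range, and the lowest array of each group lay in titles 38 to 46. The difference was -0.17 (SE 0.27, 95% interval -0.76 to 0.42, limma adjusted p = 0.852). Without Flattop replicate 4 it was 0.04.

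Cdkn1c (Entrez gene 12577) encodes p57, an imprinted inhibitor that is linked to development and to quiescent cells. Lgr5-high arrays lay close together, from 5.18 to 5.51 with a mean of 5.34 ± 0.14 (SD, n = 6). Flattop arrays read 5.95, 4.86, 5.38 and 5.35, so replicate 1 was above and replicate 2 below every Lgr5-high array. The difference in means was 0.05 (SE 0.19, 95% interval -0.37 to 0.46, limma adjusted p = 0.946), and it was -0.14 without Flattop replicate 1.

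Among the 4 INK4 genes, Cdkn2b (Entrez gene 12579) was the 1 without overlap between the groups. It encodes p15, an inhibitor of Cdk4 and Cdk6 that is known as a target of transforming growth factor beta. Flattop replicates 1 to 4 read 7.02, 6.43, 7.14 and 6.33. The Lgr5-high arrays read 5.84, 6.02, 6.13, 5.84, 5.95 and 5.74. Every Flattop array was higher, with a gap of 0.20 to the highest Lgr5-high array, and the Flattop arrays were the more spread. The means were 6.73 ± 0.41 (SD, n = 4) and 5.92 ± 0.14 (SD, n = 6). Their difference of 0.81 (SE 0.18, 95% interval 0.42 to 1.20 before any adjustment) had a limma p of 0.000893 and an adjusted p of 0.0780, which ranked 254 of 22180 genes. Arrays with titles 1 to 8 differed by 0.72 and those with titles 38 to 46 by 0.90.

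The single Cdkn2b window in RefSeq (GRCm38.p6, chr4:89310983-89311282, minus strand) is printed for the same reason as those of Cdkn1a, with the same motifs in capitals.
Cdkn2b start: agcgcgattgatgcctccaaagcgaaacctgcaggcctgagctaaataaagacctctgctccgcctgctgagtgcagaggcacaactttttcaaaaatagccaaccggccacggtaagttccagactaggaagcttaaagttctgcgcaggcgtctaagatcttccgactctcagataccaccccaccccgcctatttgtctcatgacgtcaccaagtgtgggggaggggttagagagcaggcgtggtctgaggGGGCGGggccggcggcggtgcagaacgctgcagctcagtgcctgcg
It holds 1 GC box and no match to the other 5 motifs, which says only that these letters are not in the window.

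Cdkn2a (Entrez gene 12578) is the neighbour of Cdkn2b on the chromosome. From 2 starts it gives p16, an INK4 protein, and p19Arf, which acts through p53, and the probe set value does not tell them apart. Flattop arrays read 5.29, 5.05, 5.38 and 5.66. Lgr5-high arrays read 5.70, 6.28, 5.41, 5.47, 5.29 and 5.37, with replicate 2 the highest of all 10. The groups overlapped, and the difference was -0.24 (SE 0.21, 95% interval -0.70 to 0.21, limma adjusted p = 0.717). It was -0.63 within titles 1 to 8, where the groups did not overlap (as for 19.7% of all genes in that range, on the lower side), and 0.14 within titles 38 to 46. That contrast between the ranges, 0.77 (SE 0.36), did not pass limma's interaction test (adjusted p = 0.679).

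Cdkn2c (Entrez gene 12580) encodes p18, an inhibitor of Cdk4 and Cdk6. The groups overlapped broadly, with Flattop arrays at 6.05, 5.92, 4.64 and 5.21 and Lgr5-high arrays at 6.22, 5.32, 5.25, 4.61, 5.76 and 5.29. The lowest array of each group lay in titles 38 to 46 and the highest in titles 1 to 8. The difference was 0.05 (SE 0.34, 95% interval -0.70 to 0.80, limma adjusted p = 0.970), with 0.39 within titles 1 to 8 and -0.29 within titles 38 to 46. Of all 7 inhibitors, 0 passed the interaction of group and title range in limma after adjustment, and 0 had an unadjusted interaction p below 0.05. Of all genes, 0.00902% and 7.39% did.

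Cdkn2d (Entrez gene 12581) encodes p19Ink4d, the remaining INK4 inhibitor. The Flattop arrays were tight, at 5.78, 5.76, 5.92 and 5.80. The Lgr5-high arrays read 5.66, 5.46, 5.503, 5.78, 5.64 and 5.12. The groups met at their edge, since Lgr5-high replicate 4 (5.783) lay above Flattop replicate 2 (5.757). These arrays belong to different title ranges, and within each range every Flattop array was the higher, by 0.23 and 0.35 in the means. With 2 against 3 arrays, 11.1% of all genes were higher without overlap within titles 1 to 8 and 12.2% within titles 38 to 46. The means were 5.82 ± 0.07 (SD, n = 4) and 5.53 ± 0.23 (SD, n = 6), and the difference of 0.29 (SE 0.14, 95% interval -0.02 to 0.59) did not pass (limma adjusted p = 0.544).

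**Figure D2:**
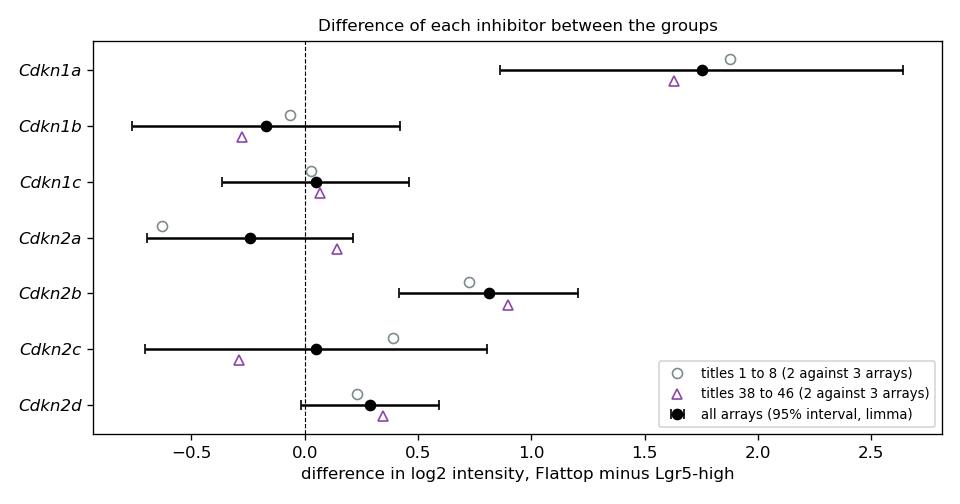
Difference in log2 intensity, Flattop minus Lgr5-high, for each inhibitor over all arrays (filled points, with 95% intervals from limma that are not adjusted for the number of genes) and within titles 1 to 8 (open circles) and titles 38 to 46 (open triangles). Cdkn1a (1.75) and Cdkn2b (0.81) lie to the right of 0 with little change between ranges, whereas Cdkn2a and Cdkn2c change sign between the ranges.

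Within the 6 Lgr5-high arrays, 21 pairs of inhibitors were compared. Cdkn1a and Cdkn2d varied together most closely (r = 0.94, exact permutation p = 0.0139, two-sided, and Spearman rho = 0.83, exact p = 0.0583). Adjusted over the 21 pairs, the exact p of r was 0.292 and that of rho was 1. Without the 2 arrays farthest from the median of Cdkn1a, r was 0.52. With 6 arrays even a strong relation could hardly pass after adjustment over 21 pairs. The relation was therefore not established, and these checks cannot decide it. Over all 10 arrays, the genes most like each inhibitor were found by Pearson's r as a measure of likeness, which includes the difference between the groups and any feature the arrays share. For Cdkn1a they were Numb (0.93), which encodes an inhibitor of Notch signalling, and Hspa5 (0.93) and P4hb (0.92), which encode a chaperone and a disulphide isomerase of the endoplasmic reticulum. Cdkn2b was most like Il7r (0.95), a lymphocyte cytokine receptor, Car2 (0.93), a carbonic anhydrase, and Spats2l (0.93). Leaving out the 2 arrays farthest from the median of Cdkn2b, Flattop replicates 1 and 3, gave 0.73 for Il7r, 0.85 for Car2 and 0.76 for Spats2l. Of these 6 genes Car2 rose by 2.73 (SE 0.24, limma adjusted p = 0.000338), and the other 5 did not pass. These 6 were picked for likeness, over the same arrays, to inhibitors whose groups did not overlap. A difference between the groups was thus favoured by the choice and is not a separate result.

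None of the 15 genes most like the other inhibitors passed limma's test between the groups. They were picked for likeness, over the same arrays, to inhibitors whose groups overlap. That outcome was thus largely set by the choice and is not a separate result. Cdkn2d was nearest to the receptor gene Igf2r (0.96), the actin-severing gelsolin gene Gsn (0.94) and Mapk1ip1l (0.93), and Cdkn2c to Pwp1 (0.95), Hdgf (0.95) and Oat (0.93). Cdkn1b was nearest to Bicdl2 (0.93), the histone methyltransferase gene Kmt5a (0.91) and Imp4 (0.91). For Cdkn1c, Eif4ebp1 (0.93), Nrg3os (0.90) and Bahcc1 (0.89) were nearest, but these values fell to between 0.46 and 0.57 without Flattop replicates 1 and 2. Cdkn2a was most like the taste receptor gene Tas2r130 (0.97), the beta-defensin gene Defb47 (0.96) and Cfc1 (0.96), and Lgr5-high replicate 2 was the array farthest from its median.

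The kinases and cyclins that the inhibitors act on did not pass the test in either direction. Of 10 measured genes of this group, 0 were called by limma and 0 had an unadjusted p below 0.05, with a median difference of -0.30. Cdk2 was at -1.06 (SE 0.58), Cdk1 at -0.67 (SE 0.31), the cyclin genes Ccna2 at -0.54 (SE 0.29, with -0.045 in titles 1 to 8 and -1.04 in titles 38 to 46) and Ccne1 at -0.44 (SE 0.24). Titles 1 to 8 alone gave a list median of 0.05, and titles 38 to 46 alone gave -0.75.

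Downstream, the retinoblastoma gene Rb1 showed the same kind of separation as Cdkn1a. Flattop arrays read 8.67, 9.26, 8.74 and 8.10 for Rb1, and Lgr5-high arrays 7.35, 5.54, 5.86, 7.39, 7.49 and 6.62. All Flattop arrays were above all Lgr5-high arrays, and the difference was 1.99 (SE 0.42, limma adjusted p = 0.0629). It passed once dim genes, those below the 40th percentile of the mean, were left out (adjusted p = 0.0415) and with the mean of its probe sets, where it was 1.31 (adjusted p = 0.0448). Rb1 did not pass in the other 18 of 20 alternatives, among them the 10 that leave out 1 array, and its adjusted p reached 0.354 with the replicate block. Its difference was 2.71 in titles 1 to 8 and 1.26 in titles 38 to 46. Its relative Rbl2, which encodes p130, was at 1.15 (SE 0.41, limma adjusted p = 0.353). E2f1, an activator of replication genes, lay lower in every Flattop array (5.499 to 5.78) than in any Lgr5-high array (5.85 to 6.72), with a difference of -0.45 (SE 0.18, limma adjusted p = 0.431), and Tfdp1, a partner of E2F proteins, was at -1.35 (SE 0.62). Of the 13 retinoblastoma and E2F genes, 0 passed and the median was -0.23. Before adjustment Rb1 and Rbl2 had p below 0.05 with higher values, and E2f1 with lower values.

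Known regulators of the inhibitors gave 0 calls among 22 measured genes, a median of -0.01, and unadjusted p below 0.05 for 5 genes on the higher and 1 on the lower side. Klf4, a zinc finger factor of differentiated epithelium that is known to activate Cdkn1a, read 8.39, 7.83, 7.74 and 7.42 in Flattop arrays and 6.74, 5.83, 6.97, 5.69, 6.31 and 6.88 in Lgr5-high arrays. These groups did not overlap, and the difference of 1.44 (SE 0.29) just missed the threshold (limma adjusted p = 0.0531). With array weights Klf4 passed at an adjusted p of 0.0417, and with dim genes left out at 0.0382, but not in the other 18 of 20 alternatives (highest adjusted p 0.373). Klf6, a related factor, was at 0.93 (SE 0.22, limma adjusted p = 0.108), again without overlap. Smad3, a carrier of transforming growth factor beta signals, was at 0.98 (SE 0.39, limma adjusted p = 0.447), with 1.74 in titles 1 to 8 and 0.21 in titles 38 to 46. The forkhead factor gene Foxo1 was at 0.49 (SE 0.20, limma adjusted p = 0.452), but with the mean of its probe sets it was at 0.13 (limma adjusted p = 0.866).

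Of 22 other p53 targets measured, 0 passed and the median was 0.03. Cdkn1a, a single gene at 1.75, did not pass either (limma adjusted p = 0.0921). The 1 target with an unadjusted p below 0.05 was Mdm2, the ubiquitin ligase that limits p53, at 0.81 (SE 0.28, limma adjusted p = 0.325), with overlap between the groups. Btg2, an antiproliferative gene that is also in the dissociation list, was at 0.84 (SE 0.44), with 0.042 in titles 1 to 8 and 1.64 in titles 38 to 46. Tigar and Pidd1 were each at -0.24 (SE 0.12 and 0.15). Trp53 itself and the targets Bax and Gadd45a were not analysed here. Whether p53 plays a part in the Cdkn1a values was not tested. Genes for the breakdown of inhibitors likewise had 0 calls among 10. Unadjusted p was below 0.05 for 2, both on the higher side, Ddb1 (0.71, SE 0.31) and Rnf123 (0.37, SE 0.17), while Cks1b, which helps Skp2 mark p27, was at 0.49 (SE 0.23) and Cdc20 at -0.53 (SE 0.30).

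**Figure D3:**
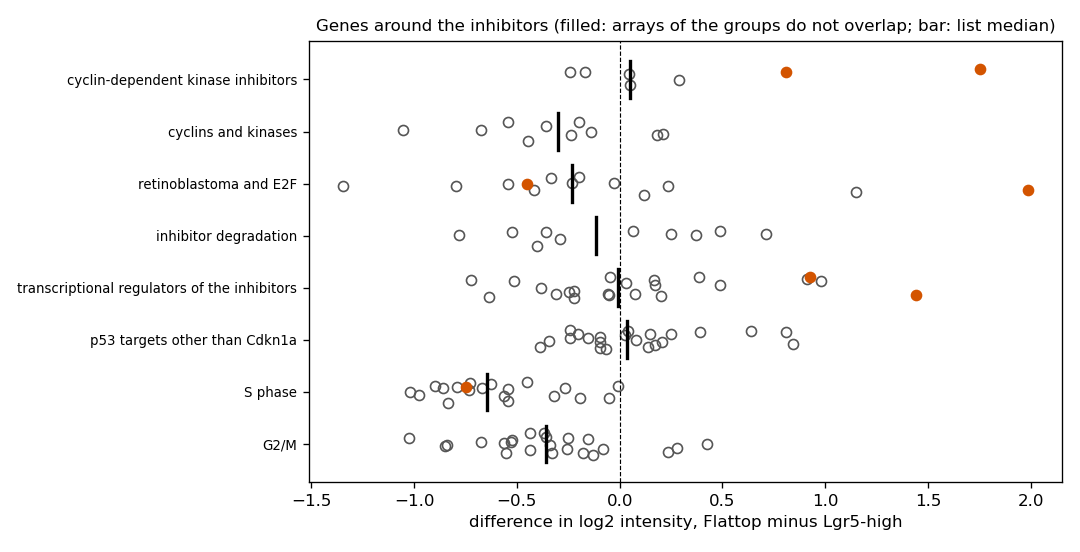
Difference in log2 intensity, Flattop minus Lgr5-high (horizontal axis), of each measured gene in 8 lists around the inhibitors. Filled points are genes whose arrays do not overlap between groups, and bars are list medians. Cdkn1a (1.75), Cdkn2b (0.81), Rb1 (1.99), Klf4 (1.44) and Klf6 (0.93) lie to the right without overlap. E2f1 (-0.45) and Slbp (-0.75) lie to the left without overlap, and the S phase list has its median at -0.65.

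Genes of DNA replication had negative differences throughout. All 20 S phase genes were lower in the mean (median -0.65), 9 of them with an unadjusted p below 0.05, and 1 fell by the adjusted test. The list median was smaller in size for titles 1 to 8 (-0.37) than for titles 38 to 46 (-0.90). That gene was Slbp, which binds histone mRNA, at -0.75 (SE 0.15, limma adjusted p = 0.0468), and it was called in 4 of 20 alternatives. Removing 1 array ended the call (adjusted p 0.0722 to 0.131), except for Flattop replicate 1, without which it was 0.0447. Pola1 was at -0.86 (SE 0.26), Mcm7 at -0.79 (SE 0.24) and Mcm3 at -0.73 (SE 0.25), and none of these passed. Of 23 G2/M genes, 0 passed, with a median of -0.36. Unadjusted p was below 0.05 for 3, Bub1 (-0.55), Nusap1 (-1.02) and Cenpf (-0.85), each on the lower side. For titles 1 to 8 the G2/M median was 0.03 and for titles 38 to 46 it was -0.75. Cdkn1a differed by 1.88 and 1.63 in the same ranges. In Flattop replicates 1 to 4 the S phase means were 7.43, 7.34, 6.55 and 6.74, beside Cdkn1a values of 9.85, 8.80, 8.88 and 9.41. The array with the most Cdkn1a (9.85) had the highest S phase mean of its group (7.43). The array with the least Cdkn1a (8.80) had the next highest (7.34). Both of these arrays are in titles 1 to 8, where the S phase means lay above those of titles 38 to 46. Within each range the Flattop array with more Cdkn1a had the higher S phase mean. Whether Cdkn1a is tied to the S phase or G2/M values was not tested.

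Markers of differentiated epithelium and of lymphocytes were high in the same arrays as Cdkn1a and Cdkn2b. A gene is counted here as risen if it was higher and passed the adjusted test, as did 0.902% of all genes. Of 12 measured T cell and intraepithelial lymphocyte genes 11 rose. Their list means were 8.35, 8.92, 10.55 and 10.07 in Flattop replicates 1 to 4 and 4.44 to 4.89 in Lgr5-high arrays. Of 15 enterocyte genes 7 rose (8.999 to 10.23 against 6.47 to 7.22), of 10 goblet genes 7 (11.28 to 11.83 against 8.90 to 10.16), of 10 Paneth genes 6 (10.37 to 11.42 against 7.50 to 8.67), of 16 enteroendocrine genes 5 (7.24 to 8.47 against 6.18 to 6.94), and of 5 mast cell genes 3 (5.68 to 6.50 against 4.005 to 4.456). Among 14 Lgr5 stem cell genes 0 passed, and 7 had an unadjusted p below 0.05 on the lower side (7.33 to 8.70 against 8.42 to 8.999). B and plasma cell, macrophage and dendritic, and fibroblast and endothelial lists had 0 calls each and overlapping means. Before adjustment, p was below 0.05 for 1 gene of the B and plasma cell list and 1 of the fibroblast and endothelial list, both higher. In the macrophage and dendritic list it was below 0.05 for 3 genes, 2 lower and 1 higher, the last also in the Paneth list. In the enteroendocrine list it was below 0.05 for 10 higher genes and 1 lower gene. In the enterocyte, goblet and Paneth lists it was below 0.05 for 14, 10 and 10 genes, all of them higher. In the lymphocyte and mast cell lists it was below 0.05 for 11 and 3 genes, also all higher. Whether these marker differences play a part in the inhibitor values was not tested. No marker can be given as absent, since array values have no 0.

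Within the Flattop arrays the inhibitors and the lists did not share 1 order. Cdkn1a was highest in replicate 1, where the lymphocyte mean was lowest (8.35) and the Paneth (11.42) and enteroendocrine (8.47) means were highest. Cdkn2b was highest in replicate 3 (7.14), where the lymphocyte mean was highest (10.55) and the enterocyte mean lowest (8.999). It was nearly as high in replicate 1 (7.02), where the lymphocyte mean was lowest. In replicate 4 Cdkn2b was lowest (6.33), beside a lymphocyte mean of 10.07. With 4 arrays these orders are descriptions only. Genes that respond to cell dissociation had 0 calls among 16 (3 with an unadjusted p below 0.05, all higher), with list means of 7.66 to 8.56 in Flattop and 6.65 to 8.22 in Lgr5-high arrays. The list median was -0.32 in titles 1 to 8 and 1.15 in titles 38 to 46. In titles 38 to 46 both Flattop means (7.77 and 8.56) were above the Lgr5-high means (6.98, 6.65 and 7.66). The Cdkn1a difference was 1.63 in titles 38 to 46 and 1.88 in titles 1 to 8. Among the Lgr5-high arrays, replicates 4 (8.32) and 5 (8.15) had the most Cdkn1a and the lowest dissociation means. Whether dissociation plays a part in the Cdkn1a values was not tested.

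**Figure D4:**
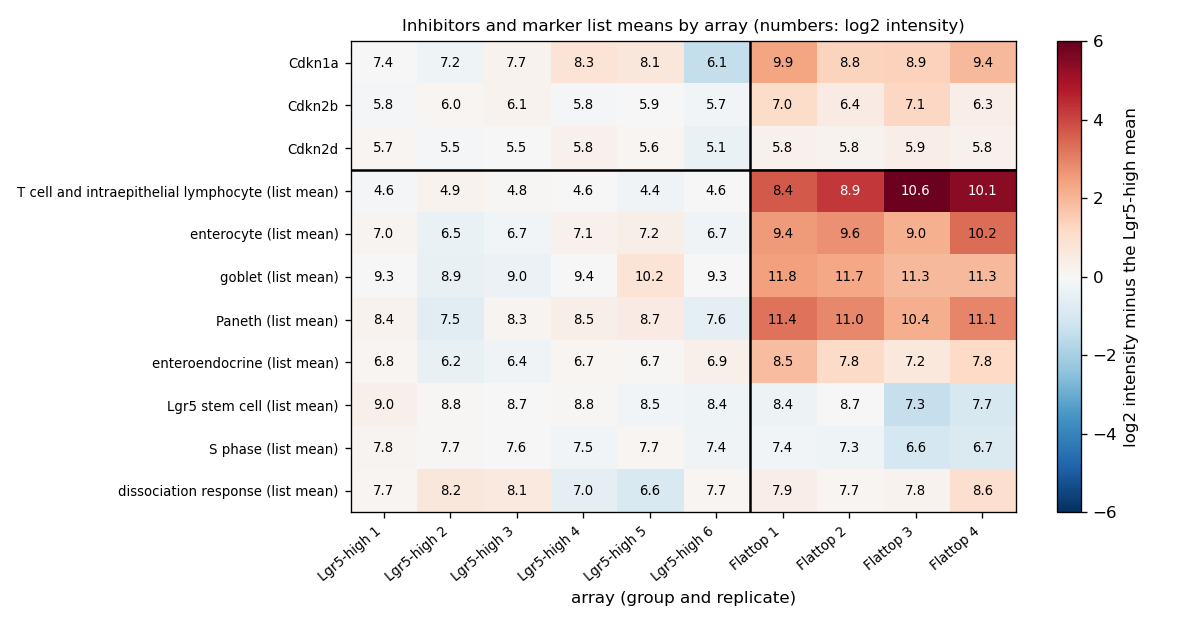
Log2 intensity of Cdkn1a, Cdkn2b and Cdkn2d and means of 8 gene lists (rows) in each array (columns), with the value printed in each cell. Colour is the departure from the Lgr5-high mean of the row, red higher and blue lower. The lymphocyte list departs most, from 4.44 to 4.89 in Lgr5-high arrays to between 8.35 and 10.55 in Flattop arrays, beside 6.08 to 8.32 and 8.80 to 9.85 for Cdkn1a.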

How the data were processed

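The authors deposited normalised log2 intensities for each probe set, made with RMA in the R package oligo 1.38.0, per the submitters' processing notes. RMA corrects background, normalises arrays and summarises probes, which can compress differences of dim genes. Gene names came from the platform annotation. Where a gene had several probe sets, the brightest over the 10 arrays on average stood for it, and 1814 probe sets with several symbols and 16010 not listed were left out. Flattop (4 arrays) and Lgr5-high (6 arrays) were compared with limma 3.58.1 in R 4.3.3, two-sided, over 22180 genes, with Benjamini-Hochberg adjustment and a threshold of 0.05, and an interaction between group and title range was fitted the same way. The fit was tested on simulated data. No samples were dropped or imputed. The inhibitors and the gene lists were chosen with earlier results of these data known. The rule for named genes took the 7 inhibitors, up to 4 genes of each other list with the smallest p (marker lists are given by their means and counts), and Lgr5, Cfap126, Ccl5 and Fabp6 as context, of which the last pair was not needed. It added the 3 genes most like each inhibitor, leaving out other inhibitors, predicted genes, small RNAs, olfactory and vomeronasal receptors and immunoglobulin and T cell receptor segments. The number of arrays limits the precision. Alternatives were a second quantile normalisation, arrays centred on their medians, a filter at the 40th percentile of the mean, a trended and robust prior, array weights, a replicate block, the title range as a block, each range alone, each array left out, and averaging over a gene's probe sets. Plots were drawn with matplotlib 3.10.9.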

Additional observations from a re-analysis of the deposited data

Results flagged for a closer look

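Of 104 sets of values examined (52 genes and list means in each group), 3 had 1 array far from the others, and chance gives about 1 in 20. None was an inhibitor. Ccna2 read 7.89 in Flattop replicate 3, against 9.27 to 9.44 in the remaining 3. Ccne1 read 6.62 in Lgr5-high replicate 5, against 5.42 to 5.72 in the others. Pidd1 read 5.46 in Lgr5-high replicate 6, against 5.91 to 6.16 in the others.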

How the results depend on the processing

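Under 20 alternatives, 0 of the 7 inhibitors passed the threshold. The difference of Cdkn1a ran from 1.47 to 1.92 (adjusted p 0.0631 to 0.645) and that of Cdkn2b from 0.67 to 0.94 (adjusted p 0.0524 to 0.523). Their groups stayed apart in both renormalisations, and the other 18 alternatives could not have made them overlap. The highest of these p came from a title range alone, where 5 arrays remain. Within titles 38 to 46 Cdkn2a was at 0.14 and Cdkn2c at -0.29. With 1 array left out, Cdkn1b ran from -0.30 to 0.037, Cdkn1c from -0.14 to 0.22, Cdkn2c from -0.15 to 0.32, and the median of the 7 from -0.14 (without Flattop replicate 1) to 0.25 (without Flattop replicate 3). The interaction of Cdkn1c was -0.0028 after a second quantile normalisation and -0.085 with arrays centred, where that of Cdkn2d was -0.012. In titles 1 to 8 alone, Cenpf was at 0.032, Nusap1 at 0.0005 and Tfdp1 at 0.028. Of 27 other genes named from the lists, 19 differed by over 1.5 times between a title range and all arrays, 13 of them with the larger difference in titles 38 to 46. Over all genes, the 200 higher and 3 lower became 57 and 0 (57 in all) with the replicate block, 77 and 0 (77) in titles 1 to 8 and 75 and 10 (85) in titles 38 to 46. Lower genes numbered 7 after a second quantile normalisation and 6 with the title range as a block. With 1 array left out, counts ran from 123 to 215 in all, 118 to 211 higher and 1 to 5 lower, the smallest totals being without Flattop replicate 2 (123) and Lgr5-high replicate 4 (132). The interaction count of 2 became 4 with a trended and robust prior. The causes were not tested. Replicate numbers did not pair the samples (correlations of deviations 0.30, -0.21, -0.01 and 0.03 for numbers 1 to 4), and the replicate block gave 1.57 for Cdkn1a and 0.77 for Cdkn2b. Numbers 5 and 6 exist only among the Lgr5-high arrays, so in that block these arrays do not add to the difference. The block thus compares fewer arrays than the main fit. Of 720 list counts under these alternatives, 42 moved by over 1.5 times. Without detection calls, signal over background is unknown for the dimmer inhibitors.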
